A study of Mus musculus with 9 samples.

Results

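Ligands, intracellular inhibitors and direct target genes of the BMP and TGF-beta pathway were followed through 9 mouse RNA-sequencing libraries. The 10 genes were Bmp2, Bmp4, Bmp7, Tgfb1, Tgfb2, Id1, Id2, Id3, Smad6 and Smad7, found by symbol among the 50600 genes of the deposited tables, and each matched 1 row. All 10 reached a level of at least 1 TPM, the unit that adjusts reads for gene length and library total, in at least 1 library and were therefore among the 16208 genes tested. Organoids grown from normal small intestine (genotype WT, strain C57BL/6; 2 groups that differed in medium) and tumoroids grown from intestinal tumours of Apc1638N/+ mice (strain MIX) were compared, with 3 libraries in each group. Organoids came from 3 mice and tumoroids from 3 mice. The strains follow the labels, whereas the study's methods give a mixed background for all its mice. The organoids spent 24 hr in medium that was 50% conditioned medium, taken either from tumoroids (T-cM) or from WT organoids (WT-cM), and the tumoroids spent 24 hr without conditioned medium. The titles of the 6 organoid libraries and their treatment field name opposite media, so each group is named here by its title (T-cM-titled or WT-cM-titled), and under the other label every difference between the organoid groups turns round. Per the labels all cultures received EGF (50 ng/ml), Noggin (100 ng/ml) and R-spondin1 (500 ng/ml), whereas the study's methods describe tumoroid culture in EGF and Noggin alone. Noggin, a secreted antagonist that binds BMP ligands, was thus present in every group. The tumour-bearing mice were older than the mice that gave organoids, per the same methods. Genotype, strain as labelled, age, tissue of origin, conditioned medium and, per the methods, R-spondin1 therefore cannot be told apart between tumoroids and organoids.

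BMP and TGF-beta ligands are secreted proteins that bind pairs of serine/threonine kinase receptors, which phosphorylate SMAD proteins that then enter the nucleus with SMAD4. BMP ligands act through SMAD1, SMAD5 and SMAD9, whereas TGF-beta ligands act mainly through SMAD2 and SMAD3, and the inhibitory SMAD6 and SMAD7 are induced by the signal and damp it. In the intestine BMP activity is low at the crypt base and rises towards the villus, mesenchymal cells are a main source of BMP ligands and of their antagonists, and TGF-beta restrains epithelial growth.

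Reads counted per library ranged from 16541635 to 25170966, so that 3 reads, the limit that a count of 0 allows, correspond to 0.103 to 0.204 CPM, reads scaled to library size. Values by library are given as normalised CPM, that is CPM after TMM scaling of library size. The scaling factors were 0.890 to 0.962 in organoids and 1.19 to 1.21 in tumoroids, so a tumoroid excess is larger on the unscaled TPM scale than on this one. All 6 epithelial markers were present in all groups, with a summed level of 8194 to 11503 TPM in organoids and 10452 to 12131 TPM in tumoroids. Within this list Vil1 (log2 fold change -2.15, adjusted p = 7.5e-06) and Krt8 (-0.75, adjusted p = 0.0053) were lower and Krt18 was higher (1.38, adjusted p = 0.00035) in tumoroids. The 8 enterocyte markers summed to 28579 to 62169 TPM in organoids and to 136, 410 and 72.4 TPM in tumoroids 1, 2 and 3. The 10 mesenchymal markers summed to 0.43 to 1.57 TPM in organoids and to 7.8, 4.21 and 94.0 TPM in tumoroids, nearly all of it Acta2, with Col3a1 and Lum at 0. The 6 immune markers summed to 1.4 to 3.43 TPM in organoids and to 13.9, 32.6 and 61.9 TPM in tumoroids, from Cd68 and Csf1r, with Cd3e at 0. The 5 endothelial markers summed to 0.19 to 0.47 TPM in organoids and to 0.16, 0.2 and 1.68 TPM in tumoroids, with Kdr and Emcn at 0. Cdh5, with 0 reads in all organoids and 1, 1 and 54 in tumoroids, entered the test through tumoroid 3 alone and passed (adjusted p = 0.036), but not against either organoid group alone (adjusted p = 0.092 and 0.094). Tumoroid 3 was also the highest library in 8 of the 10 pathway genes. This was not counted over all tested genes, and a link to Cdh5 was not tested.

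In tumoroids 6 of the 10 genes were higher than in the mean of both organoid groups and 4 did not pass (edgeR quasi-likelihood test, Benjamini-Hochberg adjusted p under 0.05). Among all tested genes 50.4% passed this test in either direction, 29.6% higher and 20.8% lower. The genes that rose were the ligands Bmp4, Tgfb1 and Tgfb2, the targets Id1 and Id2 and the inhibitor Smad7. Bmp4 and Tgfb2 reached 1 TPM in tumoroids only and so entered the test through the group in which they were high. Of the other 8 genes, 4 were higher and 4 did not pass. Among these 8, Tgfb1, Id1 and Id2 (3 genes) also changed by more than 1 on the log2 scale, as did 33.1% of all tested genes, and in the same 3 every tumoroid library lay above every organoid library, which held for 25.6% of all tested genes. The median log2 fold change of the 8 genes was 0.78, against 0.16 over all tested genes. Between the organoid groups the differences were small, except that Bmp4 and Tgfb2 had too few reads for a difference to be detected. Smad7 was higher and Bmp7 lower in T-cM-titled organoids, against 10.1% of all tested genes that passed in either direction, 8 genes did not pass, and neither Smad7 nor Bmp7 changed by more than 1 on the log2 scale.

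**Figure D1:**
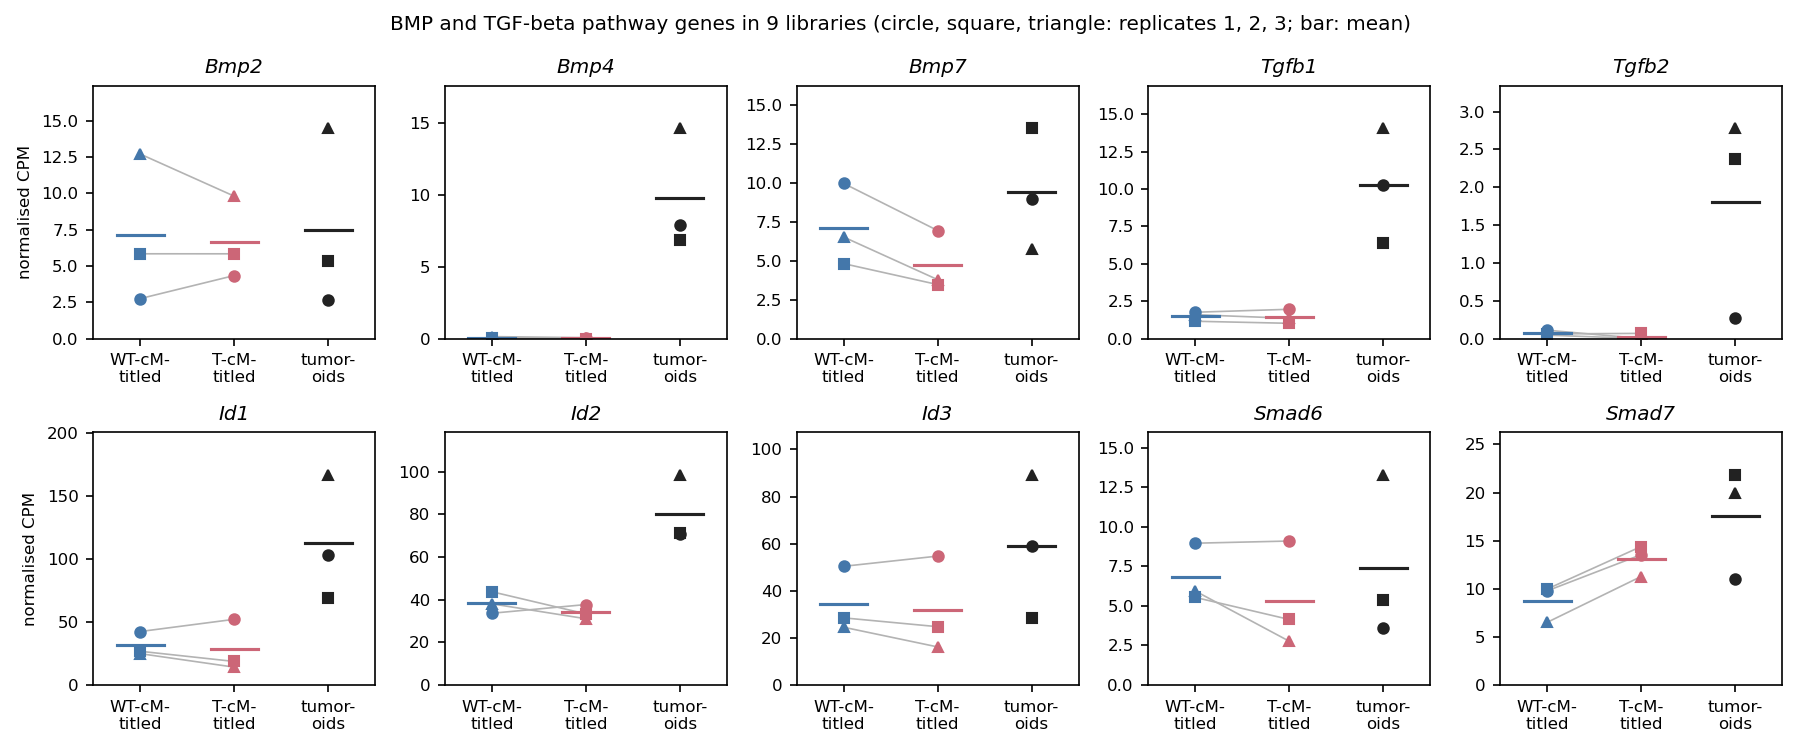
Normalised CPM (linear axes from 0) of the 10 genes in WT-cM-titled organoids, T-cM-titled organoids and tumoroids, with 1 point per library, a bar at the group mean and grey lines joining organoid libraries of the same replicate number. Bmp4 and Tgfb2 lie near 0 in all 6 organoid libraries, and tumoroid 3 is the highest library in 8 of the 10 panels.

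Of the 5 ligands among the 10 genes, Bmp4 had the largest fitted difference. Bmp4, a BMP ligand made mainly by mesenchyme in normal intestine, lies on the minus strand of chromosome 14 (GRCm38, chr14:46383520-46390669). It had 0, 1 and 3 reads in WT-cM-titled organoids 1, 2 and 3, 1, 0 and 1 reads in T-cM-titled organoids, and 174, 185 and 426 reads in tumoroids. On the scale of normalised CPM the tumoroids stood at 7.89, 6.88 and 14.6 (9.80 ± 4.22, SD, n = 3), whereas no organoid library exceeded 0.133. Organoids were thus at or below 3 reads throughout and all 3 tumoroids were far above them. Pooled over libraries, 785 reads stood against 6, a depth-adjusted ratio of 182 (95% interval 83.3 to 498, exact, counting error only). The fitted log2 fold change was 7.41 (SE 0.56, adjusted p = 7.5e-06). An opposite-strand gene, Gm15217, has exons that meet those of Bmp4, and 0 reads were counted on it in the 9 libraries. In these bulk samples a change in the number of cells that make a transcript and a change in transcript per cell cannot be told apart. Acta2 moved with Bmp4 (log2 fold change 6.62, SE 1.08, adjusted p = 0.00071). Pdgfrb stood at 0.2 to 0.51 TPM in organoids and at 0.11, 0.08 and 1.17 TPM in tumoroids, and did not pass. The other 8 of the 10 mesenchymal markers stayed at or below 0.25 TPM in every library. The part of mesenchymal cells in the result was not tested.

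Tgfb1 and Tgfb2 encode TGF-beta ligands that are secreted in a latent form. Tgfb1 (plus strand, chr7:25687002-25705077) was measured at 1.76, 1.16 and 1.59 normalised CPM in WT-cM-titled organoids, at 1.96, 1.02 and 1.35 in T-cM-titled organoids and at 10.3, 6.40 and 14.1 in tumoroids. The lowest tumoroid was well above the highest organoid, and the organoid groups overlapped. Tgfb1 was higher in tumoroids by 2.79 on the log2 scale (SE 0.31, adjusted p = 7.2e-05), which is a 6.92-fold change. Tgfb2 (minus strand, chr1:186622792-186705989) had 2, 1 and 1 reads in WT-cM-titled organoids, 0, 1 and 0 in T-cM-titled organoids and 6, 64 and 81 in tumoroids. Tumoroids 2 and 3, at 2.38 and 2.78 normalised CPM, stood apart from tumoroid 1 at 0.272, which was only just above the organoids. Over pooled reads (151 against 5) the depth-adjusted ratio was 42.0 (95% interval 17.6 to 131, exact, counting error only), and the fitted log2 fold change was 5.36 (SE 0.84, adjusted p = 0.00056). An opposite-strand gene whose exons meet those of Tgfb2, Gm29491, had 1 read in all 9 libraries.

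Bmp2 and Bmp7, both BMP ligands, did not pass in tumoroids. Bmp2 (plus strand, chr2:133552159-133562885) was measured at 2.75, 5.84 and 12.7 normalised CPM in WT-cM-titled organoids, at 4.34, 5.84 and 9.81 in T-cM-titled organoids and at 2.63, 5.35 and 14.5 in tumoroids. The groups overlapped fully, each spread over a wide range, and the log2 fold change in tumoroids was 0.13 (SE 0.58, adjusted p = 0.88). Without tumoroid 3 it was -0.80 (SE 0.57, adjusted p = 0.28). Bmp7 (minus strand, chr2:172868012-172940321) was measured at 8.97, 13.5 and 5.77 in tumoroids, against 4.80 to 9.95 in WT-cM-titled and 3.46 to 6.93 in T-cM-titled organoids. The tumoroids overlapped the organoids, with a log2 fold change of 0.70 (SE 0.35, adjusted p = 0.12) that passed without tumoroid 3 (0.94, adjusted p = 0.048).

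The promoters of Bmp4 and Tgfb1, which were higher in tumoroids, and of Smad6, which did not pass, are shown for comparison. RefSeq promoter entries (GRCm38.p6) were at hand for 6 of the 10 genes, and the 250 bases before the start in RefSeq were read. For Id2 and Id3 that start lies inside the longer GENCODE gene, so their windows overlap their own exons, and the Tgfb2 window overlaps an exon of Gm29491. The Bmp4 window is chr14:46390670-46390919 (minus strand), the Tgfb1 window is chr7:25686752-25687001 (plus strand) and the Smad6 window is chr9:64022060-64022309 (minus strand). Capitals mark GTCT or its reverse complement AGAC, the short core bound by SMAD proteins.
Bmp4: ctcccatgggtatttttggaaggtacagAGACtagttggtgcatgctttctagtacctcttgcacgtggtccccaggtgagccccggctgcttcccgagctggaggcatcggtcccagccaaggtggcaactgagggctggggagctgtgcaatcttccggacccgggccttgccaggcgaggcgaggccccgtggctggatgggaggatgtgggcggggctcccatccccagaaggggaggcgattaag
Tgfb1: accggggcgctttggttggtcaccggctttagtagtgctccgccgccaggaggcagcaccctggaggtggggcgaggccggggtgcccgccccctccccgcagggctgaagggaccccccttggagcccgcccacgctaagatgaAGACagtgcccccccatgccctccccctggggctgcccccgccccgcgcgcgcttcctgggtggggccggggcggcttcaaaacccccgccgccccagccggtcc
Smad6: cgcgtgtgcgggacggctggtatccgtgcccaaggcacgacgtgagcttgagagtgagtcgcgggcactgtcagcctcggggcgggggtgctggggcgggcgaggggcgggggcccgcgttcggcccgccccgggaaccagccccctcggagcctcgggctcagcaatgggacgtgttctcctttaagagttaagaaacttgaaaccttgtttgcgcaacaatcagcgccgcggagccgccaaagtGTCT
Each of these windows holds 1 copy of the core. All 6 windows hold at least 1, with 2 in Id3 and 3 in Tgfb2, and so do 82.9% of 32851 promoter windows of the same length. The palindrome GTCTAGAC, which contains the core on both strands, was in none of the 6 windows and in 0.167% of all windows. GGCGCC, a GC-rich element bound by the BMP SMADs, was among the 6 in the Id2 window alone (1 copy), which overlaps an Id2 exon, and in 9.59% of all windows. Both strands were searched, and a match describes letters, not binding.

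Of the target genes, Id1 and Id2 were higher in tumoroids. The Id genes encode inhibitors of DNA binding, helix-loop-helix proteins that hold basic helix-loop-helix factors off DNA, and they are direct BMP targets in many cell types. Id1 (plus strand, chr2:152736251-152737410) was measured at 42.5, 26.8 and 24.9 normalised CPM in WT-cM-titled organoids, at 52.2, 18.7 and 14.2 in T-cM-titled organoids and at 103, 68.9 and 167 in tumoroids. The lowest tumoroid lay above the highest organoid library, T-cM-titled replicate 1. The log2 fold change was 1.92 (SE 0.40, adjusted p = 0.0031), or 3.79-fold. Id2 (minus strand, chr12:25093799-25097140) was measured at 33.6, 43.7 and 38.0 in WT-cM-titled organoids, at 37.7, 33.3 and 31.1 in T-cM-titled organoids and at 70.8, 71.1 and 98.6 in tumoroids. It had the least spread of the 3 Id genes in every group, and rose 2.22-fold in tumoroids (log2 fold change 1.15, SE 0.15, adjusted p = 0.00015).

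Id3 (plus strand, chr4:136143497-136145755) did not pass. It was measured at 50.4, 28.5 and 24.5 normalised CPM in WT-cM-titled organoids, at 54.7, 24.8 and 16.2 in T-cM-titled organoids and at 59.2, 28.4 and 89.3 in tumoroids. Tumoroid 2 lay within the organoid range while tumoroids 1 and 3 lay above it. The log2 fold change of 0.83 (SE 0.43, adjusted p = 0.14) passed when tumoroid 2 (1.15, adjusted p = 0.046) or T-cM-titled replicate 1 (1.15, adjusted p = 0.031) was left out.

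The inhibitory SMADs fell on different sides of the threshold. Smad7, which blocks receptors for both ligand families and recruits ubiquitin ligases to them, lies on the plus strand of chromosome 18 (chr18:75367529-75395935). It was measured at 9.78, 9.97 and 6.51 normalised CPM in WT-cM-titled organoids, at 13.5, 14.4 and 11.3 in T-cM-titled organoids and at 11.0, 21.9 and 19.9 in tumoroids. Tumoroids 2 and 3 exceeded every organoid, whereas tumoroid 1 was below all T-cM-titled organoids. On the TPM scale tumoroid 1, at 7.98, was just above the highest organoid, at 7.83, so its place turned with the scaling. Smad7 was higher in tumoroids than in the mean of both organoid groups by 0.72 on the log2 scale (SE 0.24, adjusted p = 0.032). With WT-cM-titled organoids alone as controls the difference was 1.01 (adjusted p = 0.019), with T-cM-titled ones alone it was 0.43 (adjusted p = 0.25), and these contrasts share the tumoroid libraries. The call was lost when tumoroid 2 (adjusted p = 0.14), tumoroid 3 (0.1), T-cM-titled replicate 1 (0.05) or 3 (0.069) or WT-cM-titled replicate 3 (0.062) was left out. Summing the 2 organoid libraries of each replicate number gave 0.68 (adjusted p = 0.12). Smad6, which acts mainly on BMP signalling (minus strand, chr9:63953076-64022059), was measured at 3.58, 5.35 and 13.3 in tumoroids, against 5.53 to 8.96 in WT-cM-titled and 2.76 to 9.10 in T-cM-titled organoids. Its log2 fold change of 0.30 (SE 0.47, adjusted p = 0.63) was -0.44 (adjusted p = 0.44) without tumoroid 3.

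**Figure D2:**
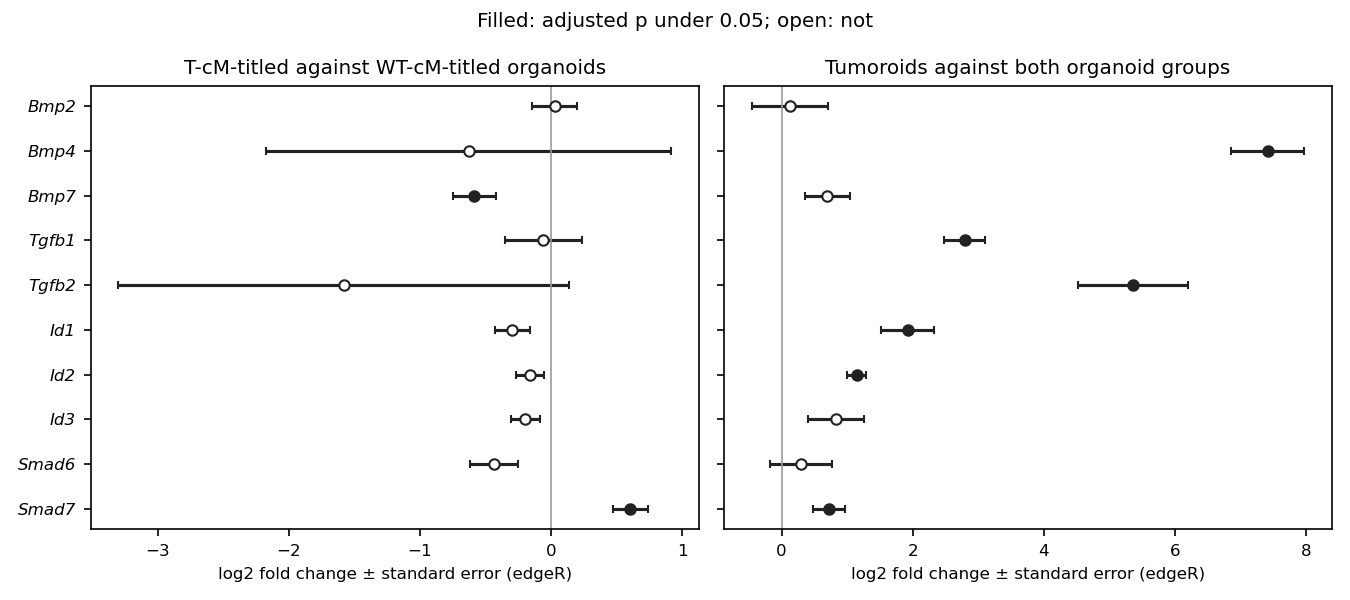
Log2 fold change and its standard error for the 10 genes between the organoid groups (left, T-cM-titled against WT-cM-titled) and in tumoroids against the mean of both organoid groups (right, on a wider scale), with filled points where the adjusted p was under 0.05. Bmp4, at 7.41, and Tgfb2, at 5.36, lie farthest right in tumoroids, and the organoid differences of both genes carry standard errors of 1.55 and 1.72.

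The difference between organoid media addressed whether signals released by tumoroids alter these genes in normal epithelium. Among all tested genes 10.1% passed in either direction (in the T-cM-titled group 5.03% were higher and 5.05% lower), and 1.10% also changed by more than 1 on the log2 scale. Smad7 was 1.38, 1.44 and 1.73 times higher in the T-cM-titled library of replicate pairs 1, 2 and 3. It was the only one of the 10 genes whose organoid groups did not overlap, which held for 10.4% of all tested genes, and its log2 fold change was 0.60 (SE 0.13, adjusted p = 0.0028). Bmp7 was measured at 9.95, 4.80 and 6.51 normalised CPM in WT-cM-titled and at 6.93, 3.46 and 3.78 in T-cM-titled organoids. Each T-cM-titled library was below its partner, although the groups overlapped, and the log2 fold change was -0.58 (SE 0.17, adjusted p = 0.021). Smad7 and Bmp7 were the 2 genes of the 10 that moved the same way in all 3 pairs, as did 41.2% of all tested genes. Both calls rested on the pairing of replicate numbers (without the block, adjusted p = 0.87 for Smad7 and 0.93 for Bmp7). Enterocyte markers also differed between the organoid groups. Alpi was higher in T-cM-titled organoids (log2 fold change 0.75, adjusted p = 4.3e-08), whereas Fabp1 (-0.61, adjusted p = 0.00014), Fabp2 (-0.56, adjusted p = 0.00033) and Mep1a (-0.86, adjusted p = 7.3e-06) were lower, the other 4 did not pass, and the part of these cells in the result was not tested. With limma voom, the tool of the study's methods, Smad7 passed and Bmp7 did not (adjusted p = 0.052).

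Replicate 1 differed from replicates 2 and 3 in several of these genes. Both replicate 1 organoid libraries were above the other 4 for Bmp7, Tgfb1, Id1, Id3 and Smad6, that is for 5 of the 10 genes, against 20.4% of all tested genes, a pattern seen after the values were known. Bmp2 went the other way, with both replicate 1 libraries (2.75 and 4.34 normalised CPM) below the other 4. The summed enterocyte markers, of which Fabp1 was the largest, were also lowest in replicate 1 of each group, at 28579 TPM (WT-cM-titled) and 30057 TPM (T-cM-titled), although Fabp2 and Krt20 were highest in replicate 1 of the T-cM-titled group. Their part in the pattern was not tested. Id1 was 1.23 times higher in the T-cM-titled library of pair 1 but stood at 0.698 and 0.570 of its partner in pairs 2 and 3. The same turn was measured in Smad6 (1.02, 0.748 and 0.465), Id3 (1.09, 0.869 and 0.659) and Id2 (1.12, 0.762 and 0.817). Tgfb1 turned too (1.11, 0.881 and 0.849), and Bmp2 did so apart from a level pair 2 (1.58, 1.00 and 0.772). Over all 3 pairs none of the 4 genes Id1, Smad6, Id3 and Id2 passed. Their log2 fold changes were -0.29 (adjusted p = 0.19), -0.43 (0.15), -0.20 (0.32) and -0.16 (0.41). Without replicate 1 all 4 were lower in T-cM-titled organoids, at -0.65 for Id1 (adjusted p = 7.2e-06), -0.75 for Smad6 (0.0037), -0.39 for Id3 (0.013) and -0.33 for Id2 (0.021), and 6 of the 10 genes passed in all. In that fit of 2 pairs 17.7% of all tested genes passed, against 10.1% with all 3 pairs, so the number of calls rose generally. Without replicate 2 or without replicate 3 none of the 10 genes passed in edgeR, and 2 had an unadjusted p under 0.05 in each case. Of all tested genes 0.00617% (1 gene) passed without replicate 2 and 3.29% without replicate 3. Smad7 then had an adjusted p of 0.35 or 0.098 and Bmp7 of 0.37 or 0.27.

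**Figure D3:**
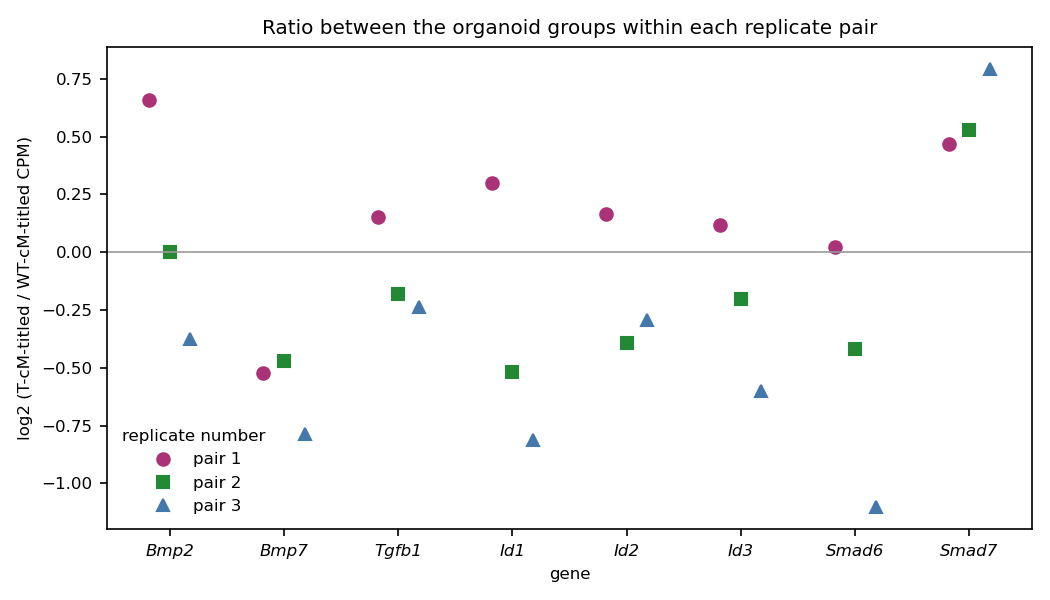
Log2 ratio of the T-cM-titled to the WT-cM-titled library in normalised CPM, within each replicate pair (circle, square and triangle for pairs 1, 2 and 3), for the 8 genes with reads in all organoid libraries. Smad7 lies above 0 and Bmp7 below 0 in all 3 pairs. Id1, Id2, Id3, Smad6 and Tgfb1 lie above 0 in pair 1 and below 0 in pairs 2 and 3. Bmp2 lies above 0 in pair 1, at about 0 in pair 2 and below 0 in pair 3.

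The remaining ligands gave no call between organoid groups. Tgfb1 differed by -0.06 on the log2 scale (SE 0.29, adjusted p = 0.96) and Bmp2 by 0.03 (SE 0.17, adjusted p = 0.97). For Bmp4 and Tgfb2, at 0 to 3 reads per organoid library, a difference between media was not detectable at this depth.

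Compared per transcript length, in TPM, the Id genes were the most abundant of the 10 genes in every group. In WT-cM-titled organoids the library values of Id2 (73.5 ± 7.86 TPM, SD, n = 3), Id1 (66.9 ± 25.5) and Id3 (47.8 ± 22.9) overlapped. Smad6 (5.24 ± 1.82), Smad7 (4.75 ± 1.28), Bmp2 (4.71 ± 3.14) and Bmp7 (4.36 ± 1.90) followed without separation, above Tgfb1 (0.730 ± 0.185), Bmp4 (0.07 ± 0.07) and Tgfb2 (0.0333 ± 0.0153). T-cM-titled organoids had the same 3 genes first and the same 3 last, with Smad7 (7.16 ± 1.06) at the head of the others. In tumoroids Id1 came first (343 ± 154), followed by Id2 (223 ± 49.3) and Id3 (115 ± 60.0). Bmp4 (15.6 ± 6.91) and Smad7 (13.9 ± 5.28) came next, and neither was separated from the other by more than its SD. Bmp7 (8.33 ± 3.80), Smad6 (8.25 ± 5.86), Bmp2 (7.55 ± 6.31) and Tgfb1 (7.14 ± 2.66) were likewise not separated, and Tgfb2 was last (1.13 ± 0.857).

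The wider pathway was read from a list of 81 further genes, of which 59 were tested. In tumoroids 34 were higher, 6 were lower and 19 did not pass. Of all tested genes, 29.6% were higher and 20.8% lower. The share of higher genes is partly fixed by the filter, because 18 of the 59 genes reached 1 TPM in tumoroids only, and 16 of these were among the higher ones. Of the 41 genes that reached 1 TPM in organoids, 18 were higher, 6 were lower and 17 did not pass, with a median log2 fold change of 0.41, against 0.16 over all tested genes. The genes with the smallest p in each role are described next. All had 3 tumoroids outside the range of the 6 organoids, which largely follows from choosing them by p and is no further support. Tumoroid 3 was the highest library in 43 of the 59 genes, which was not counted over all tested genes.

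Of 11 other ligands tested, 7 were higher and 2 lower, against 29.6% higher and 20.8% lower of all tested genes. Of the 11 ligands, 6 reached 1 TPM in tumoroids only (5 of them higher), and the other 5 split into 2 higher, 2 lower and 1 that did not pass. Gdf15, a stress-induced member of the superfamily, was measured at 3.83 to 5.58 normalised CPM in organoids and at 55.2, 44.7 and 47.8 in tumoroids (log2 fold change 3.43, SE 0.14, adjusted p = 7.5e-07). Bmp8b was measured at 3.50 to 9.10 in organoids and at 46.1, 42.3 and 19.3 in tumoroids (2.78, SE 0.26, adjusted p = 2.5e-05). Bmp3, a ligand that antagonises other BMPs, went the other way, from 11.5 to 25.6 in organoids to 1.54, 0.632 and 0.687 in tumoroids (-4.27, SE 0.41, adjusted p = 2.9e-05). Tgfb3, the third TGF-beta ligand, was singled out after its values were seen. It had 0 reads in all 6 organoid libraries and 2940 reads over the 3 tumoroids, at 21.1, 23.2 and 63.6 normalised CPM. Against a floor of 3 reads over the pooled organoid libraries it was at least 1363-fold higher, and the lower limit of the exact 95% interval, as used for Bmp4 and Tgfb2, was 1108-fold. Tgfb3, like Tgfb2, reached 1 TPM in tumoroids only.

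Of 12 receptors and co-receptors tested, 4 were higher, 2 lower and 6 did not pass, against 29.6% higher and 20.8% lower of all tested genes. Rgma and Acvrl1, both among the 4, reached 1 TPM in tumoroids only, and of the other 10 genes 2 were higher, 2 lower and 6 did not pass. Tgfbr2, the ligand-binding TGF-beta receptor, was measured at 96.7 to 148 normalised CPM in organoids and at 369, 706 and 382 in tumoroids (log2 fold change 2.04, SE 0.23, adjusted p = 7.5e-05). The BMP co-receptor gene Rgma was at most 0.476 in organoids and stood at 7.79, 6.47 and 25.9 in tumoroids (5.88, SE 0.62, adjusted p = 4.9e-05). Acvr1c, which encodes a type I receptor, an activin receptor-like kinase, was measured at 3.30 to 4.73 in organoids and at 0.317, 0.483 and 0.0343 in tumoroids (-3.87, SE 0.60, adjusted p = 0.00054). Of 10 signal-carrying SMADs and modulators tested, 4 were higher, 1 lower and 5 did not pass, and all 10 reached 1 TPM in organoids. The median log2 fold change was 0.32 in this role and 0.31 in receptors and co-receptors. Smad5, a BMP-responsive SMAD, rose by 1.29 (SE 0.16, adjusted p = 0.00012), the ubiquitin ligase gene Smurf1 by 1.17 (SE 0.18, adjusted p = 0.00046) and the SMAD co-repressor gene Ski by 0.41 (SE 0.11, adjusted p = 0.014).

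Of 6 secreted antagonists tested, 5 were higher and 1 did not pass, against 29.6% higher and 20.8% lower of all tested genes. Fst and Chrd, both among the 5, reached 1 TPM in tumoroids only. Of the other 4 tested genes 3 were higher and 1 did not pass, and the remaining 9 of the 15 listed genes were not tested. Fst, which encodes the activin-binding follistatin, was at most 0.212 normalised CPM in organoids and stood at 4.44, 4.05 and 17.2 in tumoroids (log2 fold change 6.35, SE 0.70, adjusted p = 6.2e-05). Chrd, which encodes the BMP-binding chordin, was at most 0.165 in organoids and stood at 1.09, 1.23 and 2.85 in tumoroids (5.29, SE 0.78, adjusted p = 0.00037). Nbl1, a BMP antagonist of the DAN family, was measured at 5.66 to 13.03 in organoids and at 18.9, 32.3 and 43.3 in tumoroids (1.79, SE 0.24, adjusted p = 0.00023). Of 9 genes of latency and activation tested, 7 were higher and 2 did not pass. Among the 9, Ltbp1 to Ltbp4 (4 genes) reached 1 TPM in tumoroids only, and 3 of these were higher. Of the other 5 genes 4 were higher and 1 did not pass. Ltbp3, which encodes a protein that stores latent TGF-beta in the matrix, was at most 0.165 in organoids and stood at 15.6, 17.1 and 33.4 in tumoroids (7.69, SE 0.40, adjusted p = 1.3e-06). Its relative Ltbp4 rose by 7.53 (SE 0.73, adjusted p = 3.1e-05). Thbs1, which encodes thrombospondin-1, an activator of latent TGF-beta, was measured at 2.17 to 3.81 in organoids and at 73.8, 76.3 and 435 in tumoroids (5.94, SE 0.56, adjusted p = 2.6e-05).

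Of 11 other target genes tested, 7 were higher, 1 was lower and 3 did not pass. The 4 that reached 1 TPM in tumoroids only were all among the higher ones, and of the other 7 genes 3 were higher, 1 was lower and 3 did not pass, against 29.6% higher and 20.8% lower of all tested genes. Tgif1, a SMAD co-repressor gene induced by TGF-beta, was measured at 26.0 to 33.0 normalised CPM in organoids and at 103, 127 and 172 in tumoroids (log2 fold change 2.17, SE 0.15, adjusted p = 5.3e-06). Pmepa1, a TGF-beta target whose product limits SMAD activation, was measured at 5.40 to 14.8 in organoids and at 34.6, 89.2 and 106 in tumoroids (3.06, SE 0.34, adjusted p = 6.9e-05). Atoh8, a target of BMP signalling, was at most 1.06 in organoids and stood at 16.6, 14.8 and 15.3 in tumoroids (5.38, SE 0.59, adjusted p = 6.3e-05).

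**Figure D4:**
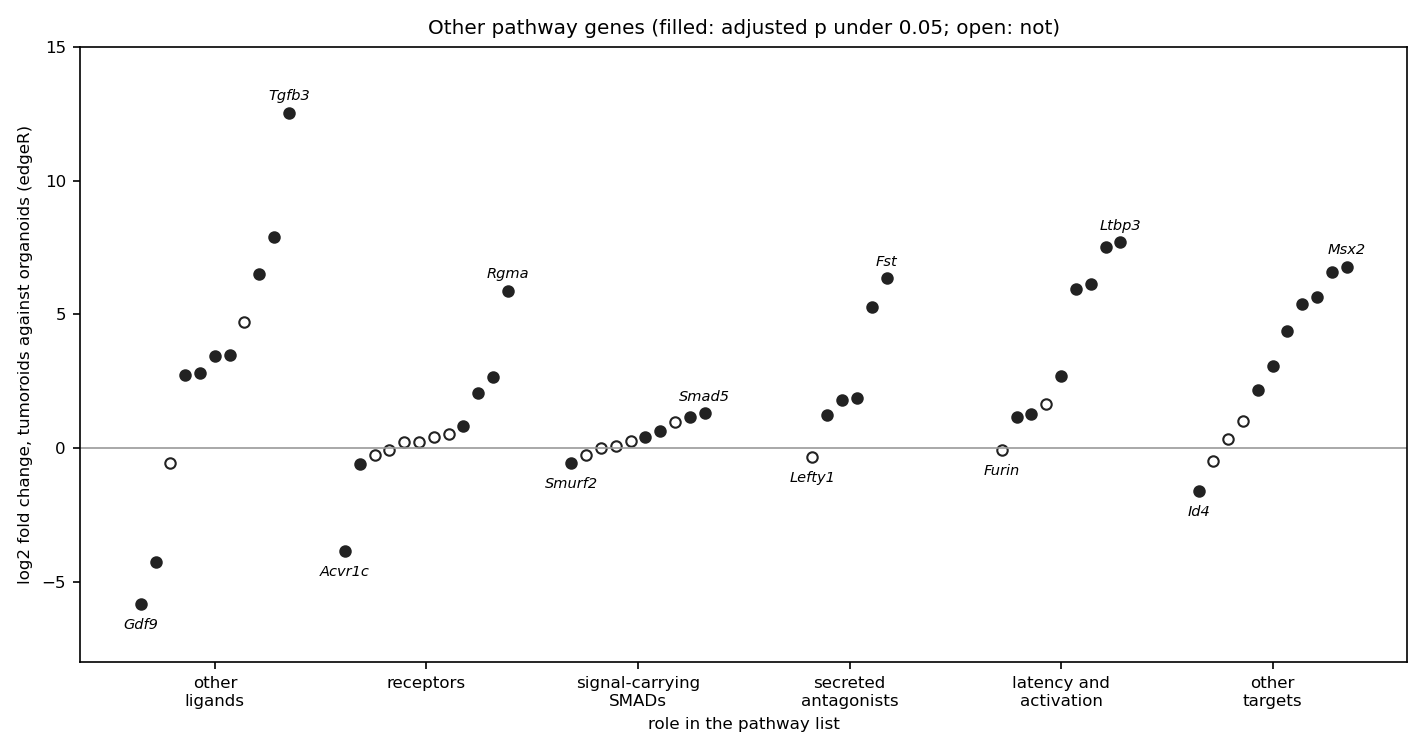
Log2 fold change in tumoroids against the mean of both organoid groups for the 59 tested genes of the pathway list, ordered by value within each role, with filled points where the adjusted p was under 0.05 and the outermost genes named. Most filled points lie above 0, the SMADs and their modulators span the narrowest range, and the point for Tgfb3, at 12.54, is a fitted value with 0 organoid reads and no measured fold.

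Between the organoid groups, T-cM-titled libraries had 6 genes of the list higher and 2 lower, of 59 tested, against 5.03% and 5.05% of all tested genes, and the median log2 fold change was 0.10. Of these 8 genes that passed, Bmp8b was the only one past 1 on the log2 scale. Of all tested genes 1.10% both passed and lay past 1. Bmp8b was measured at 3.79, 3.59 and 3.50 normalised CPM in WT-cM-titled and at 9.10, 6.04 and 7.27 in T-cM-titled organoids (1.05, SE 0.17, adjusted p = 0.00011). Nbl1 was measured at 5.66, 7.54 and 8.28 in WT-cM-titled and at 10.7, 13.03 and 11.0 in T-cM-titled organoids (0.71, SE 0.14, adjusted p = 0.0011). Neither gene overlapped between the groups, which held for 10 of the 59 genes and for 10.4% of all tested genes. The pathway inhibitors Bambi, a pseudoreceptor gene (0.92, SE 0.27, adjusted p = 0.028), Pmepa1 (0.51, SE 0.14, adjusted p = 0.014) and Skil (0.33, SE 0.10, adjusted p = 0.025) were higher too, as was the proprotein convertase gene Furin (0.44, SE 0.09, adjusted p = 0.0011). The lower genes were Bmp1, a procollagen and chordin protease gene (-0.71, SE 0.16, adjusted p = 0.0043), and Bmp3 (-0.45, SE 0.12, adjusted p = 0.015). Bmp1 was lower in pairs 2 and 3 (15.6 against 8.68 and 21.1 against 9.13) but not in pair 1 (5.50 against 5.82). Beside these 8 calls, limma voom made 3 in the list, DESeq2 made 3 and edgeR without the replicate block made none (5 at an unadjusted p under 0.05).

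Among all tested genes, likeness of pattern to each of the 10 genes was measured as the root mean square difference in log2 CPM, centred on each gene's mean over the 9 libraries. The closest match of all was Ptpn9 with Id2 (0.110), followed by Csrnp2 with Id2 (0.117). Nearest to Smad7 were Lamc1 (0.168) and Ubr1 (0.179), and nearest to Tgfb1 were Vangl1 (0.178) and Tctn2 (0.199). Bmp7 was matched best by Caprin2 and Rccd1, Id1 by Pkp1 and Ass1, Id3 by Cep55 and Cdc25b, Bmp2 by Gm12758 and H2-Q5, Bmp4 by Kcnq5 and Tshz2 and Smad6 by Spry4. Tgfb2 had the most distant nearest gene, Gm13418 (0.395), ahead of Hs3st3b1 (0.412). Between the 10 genes themselves the closest pair was Id2 and Smad7 (0.486), ahead of Tgfb1 and Id1 (0.510). Nearer matches elsewhere were all but certain with 16208 genes searched, and do not show whether the 10 genes move together. The measure also grows with a gene's range in log2 CPM, which was 1.66 for Id2 and 4.90 for Tgfb2.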

How the data were processed

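RNA was sequenced from polyadenylated transcripts (stranded paired-end libraries). Per the labels, reads were aligned to mm10 with STAR. The authors deposited a table of raw counts (no normalisation) and one of TPM, in which counts were divided by gene length and scaled per library. The strand setting of counting is not given in the sources used here. Groups follow library titles, and replicate numbers come from the titles.

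Analyses used R 4.3.3, edgeR 4.0.16 (quasi-likelihood test in its earlier form, TMM), limma 3.58.1, DESeq2 1.42.0, Python 3.11.15 and matplotlib 3.10.9. The test took every gene whose TPM reached 1 in any library, and p-values were adjusted over all of them (Benjamini-Hochberg). The organoid comparison (6 libraries) had replicate number as a block, after the study's model. Same-numbered organoid libraries deviated together (r = 0.546, 0.338 and 0.547). Tumoroids were compared with the mean of both organoid groups (9 libraries, no block), so organoids of the same mouse entered as separate libraries. Log2 CPM for likeness of pattern used a prior count of 2. The method was tested on simulated data. Alternatives were other scalings, filters, tools, blocks and left-out libraries.

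The 10 genes and the lists were chosen with earlier results of these data known. All 10 genes are named, with, per role of the pathway list, the 3 genes of smallest p in tumoroids, every gene that passed between organoid groups, and the 2 nearest genes of each of the 10 (1 of them is not reported here). The counts of non-overlapping groups, pairs and replicate 1 libraries, the promoters and motifs, and the genes shown by pair were chosen after the values were seen. Positions are from GENCODE release 21 (GRCm38).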

Additional observations from a re-analysis of the deposited data

How the results depend on the processing

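Between the organoid groups 2 of the 10 genes passed in edgeR with the replicate block. This count was 1 with limma voom, 1 with DESeq2, 0 with limma on log2(TPM + 1), 0 with the fold change threshold added and 0 without the replicate block, where 2 and 1 genes had an unadjusted p under 0.05 with TPM and without the block, and it ranged from 0 to 6 when a replicate was left out. The count in the pathway list, 8, was 3 with limma voom, 3 with DESeq2, 0 with limma on log2(TPM + 1), 1 with the fold change threshold added and 0 without the replicate block, and from 0 to 14 when a replicate was left out (7 with TPM and 5 without the block at an unadjusted p under 0.05). In tumoroids the counts stayed between 5 and 8 (10 genes) and between 31 and 45 (pathway list) over 22 alternatives. There Tgfb1, Id1 and Id2 passed in all 21 alternatives. Bmp4 also passed in all 21 and Tgfb2 in all 20 that gave a value, since edgeR's own count filter removed it. Bmp4 and Tgfb2, like 18 tested genes of the pathway list, reached 1 TPM in tumoroids only. Their passes, and the counts that hold them, are partly fixed by the filter and add no support. Bmp7 kept its direction between organoid groups and lost its call in 6 of 12 alternatives (adjusted p from 0.0094 to 0.93), Smad7 in 4 of 12 (0.00021 to 0.87). Smad7 in tumoroids lost its call in 7 of 21 (0.005 to 0.25). With limma on log2(TPM + 1), Id3 (1.31, adjusted p = 0.031) and Bmp7 (1.00, 0.022) passed in tumoroids. Some values that had not passed changed sign. Bmp2 between organoid groups was -0.050 with limma voom, -0.018 with the newer edgeR method and -0.081 without the block, and spanned -0.22 to 0.31 over left-out replicates. Over left-out replicates Bmp4 spanned -1.50 to 0.042 and Tgfb1 -0.20 to 0.021. Bmp2 in tumoroids was -0.0068 with limma voom and -0.037 with a replicate block, and spanned -0.80 to 0.53 over left-out libraries; without WT-cM-titled replicate 1 it was -0.078. Smad6 in tumoroids spanned -0.44 to 0.63 over left-out libraries. The causes were not tested. Other scaling moved the median tumoroid change of all genes by -0.06 (RLE), 0.11 (upper quartile) and 0.35 (deposited TPM). The replicate block in the tumoroid fit changed no call of the 10 genes.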
